A study of Triticum aestivum with 39 samples.

Results

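The members described here are 100 probesets of the Affymetrix Wheat GeneChip whose signal was lower in endosperm at 22 days after pollination (DAP) than in every other tissue of a wheat developmental series. They were chosen by their measured gap, defined as the lowest of the 12 other tissue means minus the mean of 22 DAP endosperm, with signals taken as log2(signal + 16). Of 61115 probesets for wheat transcripts, 39564 were retained. This excludes every identifier ending in _s_at, _x_at or _a_at and every one holding .A1. The study also set aside a large group of probesets that could not be placed with certainty at the polyadenylated end of a transcript. It found their signal to be lower and less reliable on average. Such probesets were not identified or removed here, so the retained probesets, and possibly the members, include them. Their part in the shares of retained probesets given below was not tested. Of the 39564, 39454 were not paired with a named gene. The 100 with the largest gap among the 39454 are the members, so the gap itself and every contrast with the endosperm are given as a description. Counts of calls on these contrasts are printed, but they are no test of the members. The members comprised 59 probesets with the prefix Ta and 41 with the prefix TaAffx, which made up 61.1% of the retained probesets. None of the members has a gene name or a description in the reference tables used here, and 4 have a gene locus number only. Probesets are therefore named by their array identifiers, and no function is assigned to them.

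RNA of bread wheat (Triticum aestivum) cv. Chinese Spring was hybridized to 39 arrays, with 3 biological replicates for each of 13 tissues and 10 seeds, plants, spikes or inflorescences pooled in a collection. Seed germinated on damp filter paper gave coleoptile, root and embryo, and seedlings grown in vermiculite gave root, crown and leaf. Potted plants gave the immature inflorescence, the bracts, pistil and anthers taken 2 days before anthesis, the 3-5 DAP caryopsis, and the embryo and endosperm at 22 DAP. The labels give 16 h light at 22 °C and 8 h dark at 16 °C for the germinating seed and the potted plants, and no regime for the seedlings. The study's methods give this regime for the wheat without naming stages. All plants were untreated and of 1 cultivar, and no source used here states how completely the 22 DAP endosperm was freed of embryo and seed coat. Bread wheat is hexaploid, and a probeset usually measures the sum of the homoeologous copies of a gene.

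The endosperm feeds the embryo and the seedling. After a period of nuclear division and cell formation, the starchy endosperm cells of cereals fill with starch granules and storage proteins, and later die while the outermost aleurone layer stays alive. The caryopsis of a few days after pollination is a whole young grain and holds the maternal grain wall together with a very young embryo and endosperm. Since the arrays hybridized RNA of whole tissues, fewer cells expressing a gene and less of its RNA per cell cannot be told apart.

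The label of the endosperm arrays was checked against 9 genes known from storage protein, starch and inhibitor synthesis. Of their 11 probesets, 10 were highest in 22 DAP endosperm, and the levels there ran from 12.54 to 16.34 on the log2 scale. Probesets of 5 genes of the maturing embryo were all highest in the 22 DAP embryo, but they also reached 9.54 to 14.31 in the endosperm. The anther gene raftin1a was at 5.95 in the endosperm. Of 26 probesets of 5 genes of green tissue, 16 were highest in the seedling leaf, and their levels in the endosperm ran from 4.20 to 11.50. The highest in the endosperm were probesets of petC (11.50), OEE2 (11.09) and PRK (11.04), each of them highest in the leaf. Some rbcl probesets, at 5.92, 6.10 and 5.97, were highest in the endosperm itself. The endosperm replicates correlated at 0.925 to 0.930 across the retained probesets, at the low end of the range of 0.925 to 0.968 within all tissues. The signals of the hybridization controls were higher on the endosperm arrays (12.65 to 12.76) than on the 36 other arrays (10.88 to 12.59), and the polyadenylated control dap was at 13.07 to 13.13 there. For 3 tissues, namely pistil, bracts and seedling root, this control was at 4.29 to 5.47, and all remaining arrays had 9.47 or more. The part of these technical differences in the results was not tested, but the values under other scalings and without those 9 arrays are given beside the results they move.

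The members stood at middle to high levels in the other 12 tissues and mostly close to background in the endosperm. Their mean over the other 12 tissues had a median of 9.17 and ran from 6.48 to 13.71, compared with a median of 5.97 for all retained probesets. In 22 DAP endosperm their median was 5.92, with quartiles of 5.17 and 7.14, while the median of all retained probesets was 6.14 there. The gap ran from 1.36 to 3.14, with a median of 1.65, and 18 members had a gap of at least 2. The endosperm was thus 2.80 lower than the mean of the other 12 tissues for the median member, whereas the median of all retained probesets was 0.11 higher in the endosperm. The 3 endosperm arrays lay below all 36 other arrays for 92 of the 100 members, as they did for 1.43% of the retained probesets, and the limma fit called 97 members lower in endosperm than in each of the other tissues, against 0.523% of the retained probesets. Both counts follow from the choice of the members and support nothing further.

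**Figure D1:**
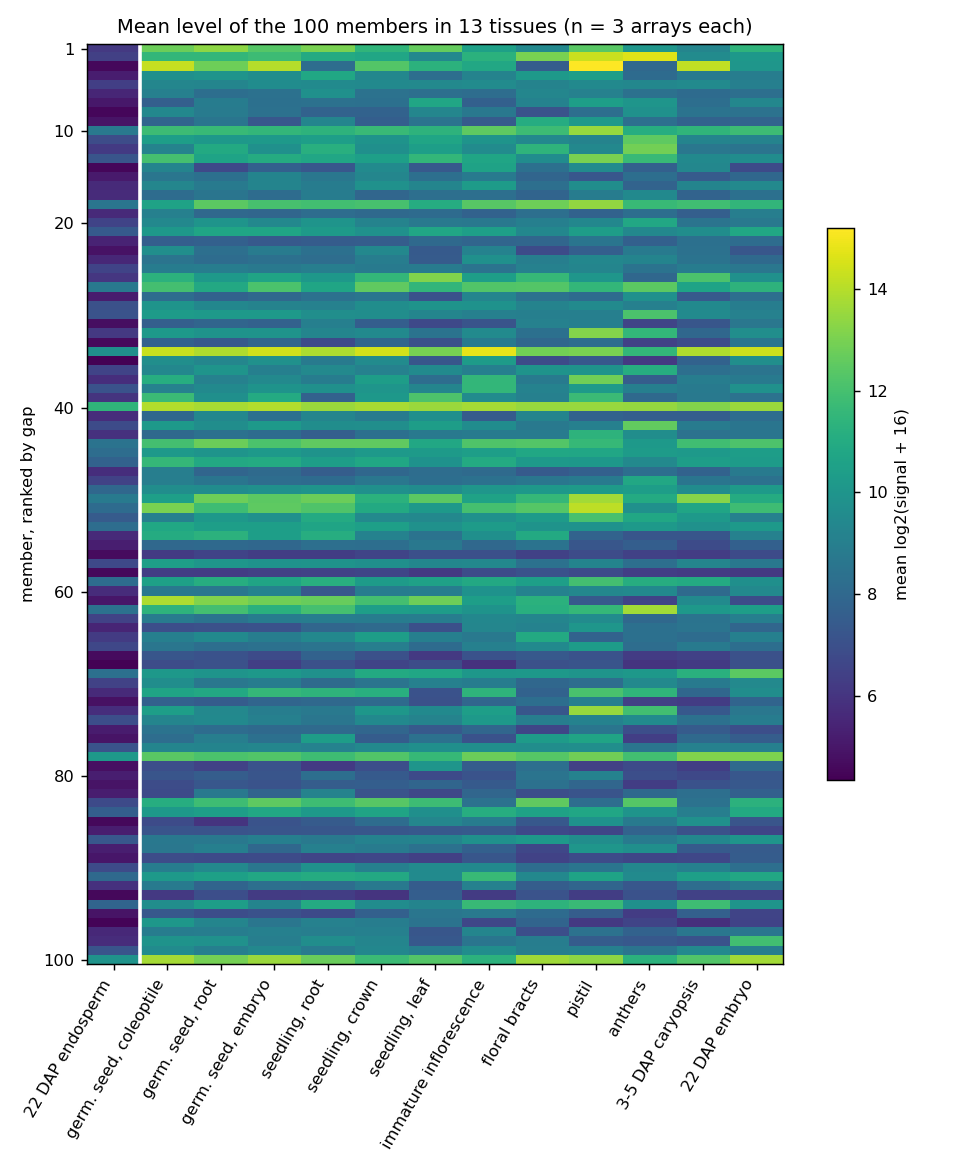
Mean log2(signal + 16) of the 100 members (rows, ranked by gap) in the 13 tissues (columns, 3 arrays each), with 22 DAP endosperm at the left of the white line. The endosperm column is darkest in every row, while the other 12 columns differ from row to row.

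As a measure of background, 64 reporter probesets, which match no wheat transcript, were used. Their 95th percentile was 6.86 to 7.15 on the endosperm arrays and 5.92 to 7.27 on the others. On all 3 endosperm arrays 61 members were at or below this percentile, 22 were above it on all 3, and 17 were above it on some of them only. The shares of all retained probesets were 56.0%, 28.5% and 15.5%, so that signals near background in the endosperm were not particular to the members. On the 36 other arrays 69 members were always above it, compared with 17.0% of all retained probesets, and 31 of these were not above it on any endosperm array (0.202%), which the choice of the members favours. For a member at background in the endosperm the gap is not a measure of the size of the fall. The fold of the closest tissue over the reporters' 95th percentile, or over the endosperm level where that was higher, is therefore given below as a lower limit. By this measure 45 members kept a gap of at least 1, and 12 of these were at background on all 3 endosperm arrays. For 27 members the closest tissue itself did not exceed the reporters' 95th percentile of the endosperm arrays.

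Ta.23069.1.S1_at had the largest gap. Its values on the 3 endosperm arrays were 6.14, 6.20 and 6.14, and those on the 36 other arrays ran from 9.10 to 13.47 with a median of 11.91. The groups were far apart, with the 3-5 DAP caryopsis next above the endosperm at 9.30 ± 0.33 (SD, n = 3) and the root of germinating seed highest at 13.34 ± 0.14 (SD, n = 3). The gap was 3.14, and the caryopsis was at least 4.87-fold above the endosperm by the reporter limit.

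Ta.10331.1.S1_at followed with a gap of 3.01. Its endosperm arrays were at 6.89, 6.70 and 5.58, and the other arrays between 9.07 and 14.75 with a median of 11.30. No array overlapped, the closest tissue being the seedling leaf at 9.40, at least 5.20-fold over the reporter limit. This member was highest in the anthers, with 14.75, 14.51 and 14.70 on the single arrays.

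Ta.22828.2.S1_at had both the third largest gap, 2.95, and the widest range among the other tissues. Its endosperm arrays were at 4.32, 4.88 and 4.53, all at background, and its other arrays ran from 6.57 to 15.38 with a median of 11.71. The tissues differed greatly, from 7.53 in bracts and 7.99 in anthers to 14.17 in the caryopsis and 15.20 in the pistil. Bracts, the closest tissue, varied among their own arrays (8.65, 6.57 and 7.36) and were at least 1.43-fold above the endosperm by the reporter limit.

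TaAffx.107511.1.S1_at was the most even member across the other 12 tissues. Its endosperm arrays gave 7.32, 5.91 and 5.84, and the 36 other arrays 8.87 to 9.84 with a median of 9.43. The 12 tissue means lay within 0.58 of each other, from 9.04 in the 22 DAP embryo to 9.62 in the germinating embryo, and the F test of limma did not find them to differ (adjusted p = 0.61). The endosperm spread of 0.83 (SD, n = 3) was larger than the range of all the other tissue means.

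TaAffx.31774.1.S1_at and TaAffx.113320.1.S1_at had gaps of 2.93 and 2.64, and both were at or below the reporter limit on all endosperm arrays, so that their closest tissues were at least 2.2-fold and 2.19-fold above the endosperm. TaAffx.31774.1.S1_at had one endosperm array at 6.68 and the others at 4.32 and 4.67, with the lowest of its 36 other arrays at 7.81. For TaAffx.113320.1.S1_at the endosperm arrays were at 5.90, 5.78 and 4.82 and the lowest other array at 7.57. Both were highest in the seedling root, at 10.82 and 9.79.

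Ta.9172.2.S1_at (gap 2.61), TaAffx.105682.1.S1_at (2.60) and TaAffx.111955.1.S1_at (2.40) had all their endosperm arrays between 4.41 and 5.20. Their closest tissues were only 1.52, 1.08 and 1.21 times the reporter limit, in the coleoptile, the bracts and the germinating embryo. They were highest in seedling leaf, anthers and bracts, in that order, at 10.78, 9.84 and 11.05. The size of the gap depended on the offset added to the signals, for these as for the members in general. With an offset of 64 the gaps of these 3 and of Ta.22828.2.S1_at were 1.62, 1.43, 1.40 and 1.73, and the median gap of all members was 1.22.

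Ta.4377.1.S1_at (gap 2.39) was the only one of the 10 that was clearly above background on all 3 endosperm arrays, with 8.93, 8.78 and 8.48. Its other arrays lay between 10.94 and 13.55 with a median of 11.66. The anthers, the closest tissue, were 5.23-fold above the endosperm, and the pistil was highest at 13.51 ± 0.06 (SD, n = 3).

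**Figure D2:**
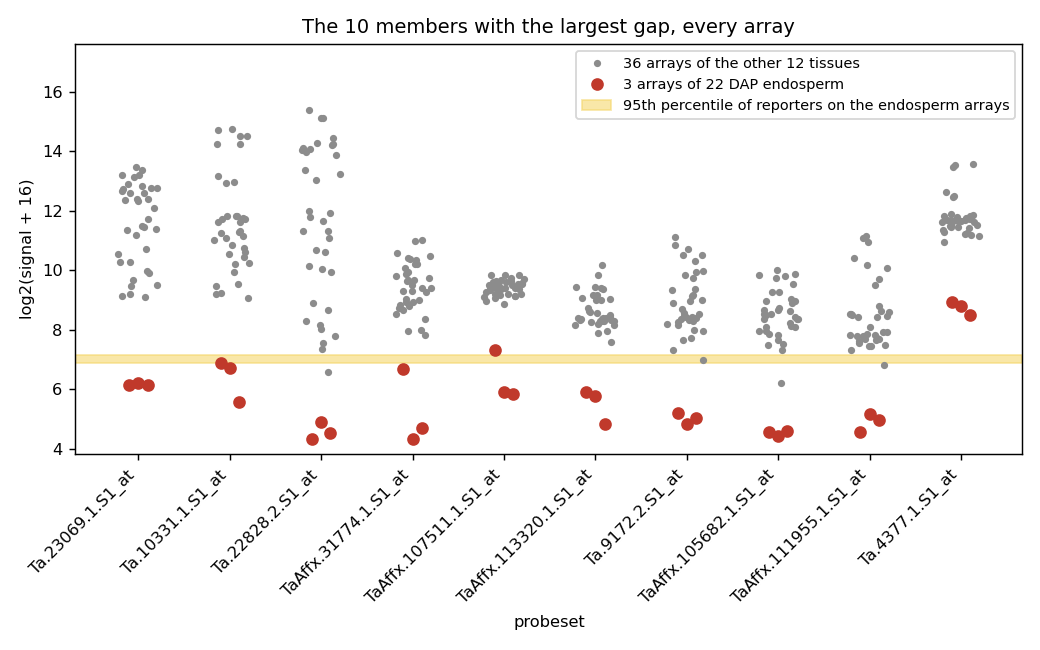
Log2(signal + 16) of the 10 members with the largest gap on every array, with the 3 endosperm arrays in red, the 36 arrays of the other tissues in grey and the reporters' 95th percentile on the endosperm arrays (6.86 to 7.15) as a yellow band. In all 10 the red points lie below every grey point, and only Ta.4377.1.S1_at has all of its endosperm arrays above the band.

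At the end of the list the gaps were close together. The last 5 members were TaAffx.122855.1.S1_at, TaAffx.48080.1.S1_at, Ta.5836.1.S1_at, Ta.12742.1.S1_at and Ta.23366.2.S1_at, with gaps of 1.37, 1.37, 1.36, 1.36 and 1.36. The first 5 outside were Ta.7008.1.S1_at, Ta.1031.2.S1_at, TaAffx.92002.1.S1_at, TaAffx.9318.1.S1_at and Ta.4848.2.S1_at, with 1.35, 1.35, 1.34, 1.34 and 1.34. The place of the limit is thus arbitrary, and applying the rule under other settings kept 60 to 77 of the 100 members.

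The endosperm replicates of the members were less alike than those of the other tissues. Their median SD was 0.40 in the endosperm and 0.19 in the other tissues, and 12 members had an endosperm SD over 1. All retained probesets had a median SD of 0.39 in the endosperm and 0.30 in the other tissues. In 8 members an endosperm array reached the level of another tissue's array. Ta.13821.1.S1_at, with the largest endosperm SD of 1.60, had endosperm arrays at 7.47, 7.94 and 4.96, and 1 pistil array at 7.58. Ta.5836.1.S1_at had 4.65, 7.17 and 5.39 in the endosperm and a lowest other value of 5.99, in the seedling leaf. Both and Ta.9420.1.S1_at were the 3 members that the fit did not call lower than each other tissue. The members were chosen on this same contrast, so the calls are no test for or against any of them.

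To measure the gap on arrays that had no part in the choice, the rule was applied to 2 replicate numbers of every tissue and the gap was then read on the arrays of the number left out. With replicate 1, 2 or 3 left out, the endosperm array was below all 12 other arrays for 87, 87 and 78 of the 100 probesets chosen, compared with 8.1%, 7.71% and 7.92% of the retained probesets. The median gap was 1.12, 1.29 and 1.17 on the left-out arrays, and 1.76, 1.77 and 1.69 on the arrays used for the choice. A left-out gap of at least 1 was found for 55, 60 and 56 probesets, against 1.0%, 1.10% and 1.18% of those retained. The lowest of 12 single arrays is smaller than the lowest of 12 means of 2 arrays by construction, so the medians of used and left-out arrays are not on the same footing. On the left-out arrays the endosperm was lowest for most of the chosen probesets. The sets chosen in this way shared 68, 76 and 66 probesets with the members.

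The same rule was applied to each tissue to see how the endosperm compares. By the median gap of the first 100 probesets, the anthers came first with 2.49, followed by the 22 DAP embryo with 1.67 and the endosperm with 1.65. The bracts were next with 1.37 and the crown was last with 0.45. A gap of at least 1 was reached by 577 probesets in anthers, 254 in endosperm and 168 in the 22 DAP embryo. The endosperm had the lowest of the 13 tissue means for 7.88% of the retained probesets, fewer than the caryopsis with 10.6%, so that it had more large gaps without being the lowest tissue more often. With signals scaled to the hybridization controls this share was 31.0%.

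**Figure D3:**
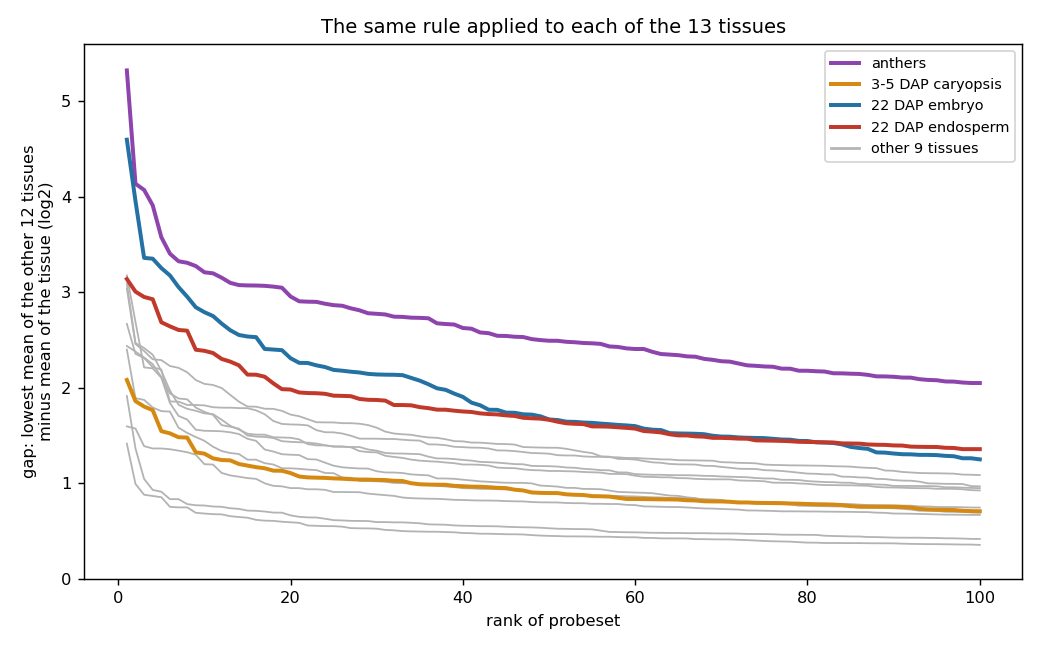
Gap (log2) of the 100 highest ranking probesets when the rule was applied to each of the 13 tissues in turn, with rank on the horizontal axis. The endosperm curve (red) falls from 3.14 to 1.36, below the anthers (5.32 to 2.05) at every rank and first below, then close to, the 22 DAP embryo, whose last value is 1.25.

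Among the other 12 tissues the members were not a uniform group. The tissue closest to the endosperm was the anthers for 23 members, the 3-5 DAP caryopsis for 21, the bracts for 13 and the seedling leaf for 10. Among all retained probesets the lowest of the 12 tissues was the anthers for 10.7%, the caryopsis for 11.6%, the bracts for 8.58% and the leaf for 9.94%, so that the leaf count was near the general share. The highest tissue was the pistil for 25 members, the immature inflorescence for 15, the anthers for 14, the coleoptile for 11 and the leaf for 9. Among all retained probesets the highest of the 12 tissues was the pistil for 9.85%, the inflorescence for 9.03% and the coleoptile for 4.72%. The anthers were highest for 22.7% of them and the leaf for 15.1%. The pistil is 1 of the 3 tissues whose arrays lacked the signal of the polyadenylated controls, and whether this plays a part was not tested. Of the 100 members 96 varied among the 12 tissues by the F test, compared with 66.2% of all retained probesets and 93.3% of those with a mean level at or above the median, so that the share among the members was near that of probesets of similar level. The range between the highest and the lowest of the 12 tissue means had a median of 2.51 and ran from 0.58 to 7.67, with a median of 1.80 over all retained probesets. It was under 1 in 8 members and over 4 in 19, compared with 14.3% and 13.5% of all retained probesets.

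The even and the strongly expressed members overlap in part. Ta.13615.1.S1_at had 11.38, 11.65 and 11.33 in the endosperm and 12.93 to 14.11 on the other arrays, with a median of 13.60. The 12 means were within 0.74 of each other, and the endosperm, although still well above background, was below all of them. Ta.6488.1.S1_at was of the same kind at a lower level, with 7.91, 8.21 and 7.76 in the endosperm and 9.45 to 10.59 elsewhere. Ta.23833.1.S1_at had the highest mean over the other 12 tissues, 13.71, and its endosperm arrays were at 10.01, 10.00 and 9.20. At the other end, Ta.28385.1.S1_at, TaAffx.38713.1.S1_at and TaAffx.23673.1.S1_at had means of only 6.56, 6.48 and 6.56 over the 12 tissues, and their closest tissues did not exceed the reporter limit.

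Wide ranges came from tissues other than the endosperm. Ta.30623.1.S1_at was at 13.85 in the coleoptile, 12.68 to 13.15 in both roots and the germinating embryo, 7.36 in the pistil, 6.88 in the 22 DAP embryo and 6.53 in the anthers. Its endosperm arrays were at 5.26, 5.02 and 4.67, and 1 of its anther arrays (4.79, 8.05 and 6.76) overlapped with them. Ta.5495.1.S1_at was at 13.52 in the pistil and 11.92 in the anthers, but at 7.24 in the bracts and 7.33 in the caryopsis. Its endosperm arrays (6.63, 5.24 and 5.45) were just below its lowest other array of 6.71, from the caryopsis.

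Comparisons among the other 12 tissues do not use the endosperm arrays and were tested with limma over all retained probesets, a call being an adjusted p under 0.05 with a log2 difference of at least 1. The rule requires every other tissue to be well above the endosperm, which works against members that are low in a single tissue. The first comparison asked whether the members were already low in the young grain, and set the 3-5 DAP caryopsis against the mean of the other 11 tissues. In the caryopsis 25 members were lower and 6 higher, whereas 8.38% of all retained probesets were lower and 4.9% higher. Of the 19782 probesets at or above the median level, which are closer to the members in level, 13.3% were lower and 8.00% higher. The median difference was -0.45 for the members and -0.17 for all probesets. On all 3 caryopsis arrays 91 members were above the reporters' 95th percentile, compared with 33.5% of all retained probesets. The choice of the members favours this. By their median level in each tissue the members stood lowest in the caryopsis (8.61), then in the 22 DAP embryo (8.84) and the anthers (8.91), and highest in the pistil (9.46). Scaling all arrays to the same median changed the counts to 14 lower and 8 higher, with 6.0% and 7.43% of all retained probesets. It also placed the anthers (8.66) below the caryopsis (8.91) in the members' median. With scaling to the hybridization controls the anthers (8.41) and the seedling leaf (8.53) were lowest in this median. The caryopsis was then at 8.75, and the root of germinating seed was highest at 9.74.

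Ta.13821.1.S1_at showed the largest fall in the caryopsis, with 8.67, 8.08 and 8.54 on its arrays. Most other tissues were between 11.11 and 12.56, but the pistil at 8.22 and the inflorescence at 8.44 were as low. The difference from the mean of the 11 tissues was -2.87 ± 0.31 (SE, adjusted p = 1.7e-08 in limma). Ta.5495.1.S1_at and Ta.9420.1.S1_at fell by 2.56 and 2.49 (adjusted p = 2.7e-11 and 4.1e-07 in limma). In the opposite direction, Ta.22828.2.S1_at was 7.21-fold higher in the caryopsis (log2 difference 2.85 ± 0.29, SE, adjusted p = 3.5e-09 in limma), at a level within 1.03 of its maximum in the pistil. TaAffx.61466.1.S1_at and Ta.23137.1.S1_at were higher by 1.93 and 1.52 (adjusted p = 4.2e-07 and 4.9e-05 in limma).

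The 22 DAP embryo lies next to the endosperm in the same grain and was dissected at the same age. Against the mean of the other 11 tissues 17 members were lower and 5 higher in this embryo, compared with 9.52% and 7.18% of all retained probesets and 16.0% and 12.3% of those at or above the median level. The share of lower members was thus close to that of probesets of similar level, and the share of higher members was below it. On all 3 embryo arrays 96 members were above the reporters' 95th percentile, compared with 35.8% of all retained probesets. The choice of the members favours this, since it requires every other tissue to be above the endosperm. Ta.5836.1.S1_at was the most embryo-rich member, with 12.27, 11.74 and 11.71 on the embryo arrays against 4.65, 7.17 and 5.39 in the endosperm. Its tissues differed widely, with the next highest, the coleoptile, at 9.91, and the embryo was 10.0-fold higher than the mean of the 11 tissues (log2 difference 3.33 ± 0.34, SE, adjusted p = 2.4e-09 in limma). Ta.26917.1.S1_at and Ta.25464.1.S1_at were higher by 2.17 and 1.24 (adjusted p = 4.8e-13 and 6.9e-06 in limma), and the latter passed the difference of 1 only while bracts, pistil and seedling root were included (0.95 without them). Ta.30623.1.S1_at fell by 4.25 in this embryo, TaAffx.111593.1.S1_at by 1.79 and Ta.8666.1.S1_at by 1.70 (adjusted p = 2.9e-13, 6.3e-12 and 2.3e-09 in limma).

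A direct comparison of the 22 DAP embryo with the embryo of germinating seed gave 17 lower and 3 higher members, against 8.3% and 6.98% of all retained probesets and 14.8% and 11.4% of those at or above the median level. Ta.30623.1.S1_at was 61.9-fold lower in the 22 DAP embryo, where its arrays were at 6.69, 7.00 and 6.96 and the germinating embryo had a mean of 12.84 (adjusted p = 2.7e-13 in limma). Ta.22828.2.S1_at and Ta.7943.1.S1_at fell by 3.94 and 2.54 (adjusted p = 2.2e-09 and 1.6e-10 in limma). Ta.5836.1.S1_at and Ta.26917.1.S1_at were higher by 2.94 and 2.32 (adjusted p = 9.2e-06 and 1.7e-10 in limma). The remaining call, TaAffx.49997.1.S1_at at 1.07 (adjusted p = 0.03 in limma), was lost without replicate 1 (0.89), without replicate 2 (adjusted p = 0.11), with an offset of 1 or 64 and with scaling to the hybridization controls.

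In the anthers, which hold the pollen, 26 members were lower and 18 higher than in the mean of the other 11 tissues. The shares were 14.1% and 15.2% among all retained probesets, and 26.0% and 17.9% among those at or above the median level, so that the members were close to probesets of similar level. Scaling to the hybridization controls changed the split to 51 lower and 11 higher, with 22.7% and 7.03% of all retained probesets. Scaling to equal medians changed it to 39 and 15, with 17.8% and 10.4%. The share of lower members exceeded that of all retained probesets under both scalings. The share of probesets of similar level was not computed under them, so whether the members differed from those is not known. Ta.10331.1.S1_at was 10.2-fold higher in anthers (log2 difference 3.35 ± 0.22, SE, adjusted p = 3.6e-14 in limma), although the pistil was nearly as high at 14.32. TaAffx.10194.2.S1_at (12.73, 12.47 and 12.56 in anthers, 6.93, 6.77 and 6.81 in the endosperm) and TaAffx.111593.1.S1_at were higher by 3.07 and 2.99 (adjusted p = 2.2e-19 and 8.8e-18 in limma). For TaAffx.10194.2.S1_at all other tissues lay between 8.57 and 10.38, so the 3 groups of values did not overlap. Ta.30623.1.S1_at, Ta.22828.2.S1_at and Ta.23137.1.S1_at fell by 4.63, 3.89 and 3.02 in anthers (adjusted p = 1.1e-14, 6.9e-13 and 4.6e-11 in limma).

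Between seedling leaf and root 10 members were higher in the leaf and 21 lower, compared with 14.2% and 14.4% of all retained probesets and 19.7% and 21.9% of those at or above the median level. The share higher in the leaf was below both backgrounds. This comparison includes the root arrays that lacked the polyadenylated control signal, and scaling to the hybridization controls changed the split to 7 higher and 52 lower, with 7.42% and 27.8% of all retained probesets. Ta.7943.1.S1_at was 21.7-fold higher in the leaf, with 12.36, 11.99 and 12.14 on the leaf arrays and 8.10, 7.62 and 7.44 on those of the root (adjusted p = 2.3e-16 in limma). Ta.23825.1.S1_at and Ta.22828.2.S1_at were higher in the leaf by 3.82 and 3.10 (adjusted p = 8.6e-14 and 9.6e-08 in limma). Ta.9420.1.S1_at was 19.7-fold lower in the leaf, where its arrays varied (5.31, 8.32 and 7.66) and 1 of them fell among the endosperm values of 5.35, 6.78 and 4.74 (adjusted p = 1.7e-09 in limma). Ta.5563.1.S1_at and Ta.10247.2.S1_at fell by 2.63 and 2.55 (adjusted p = 5.8e-08 and 7.9e-10 in limma).

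**Figure D4:**
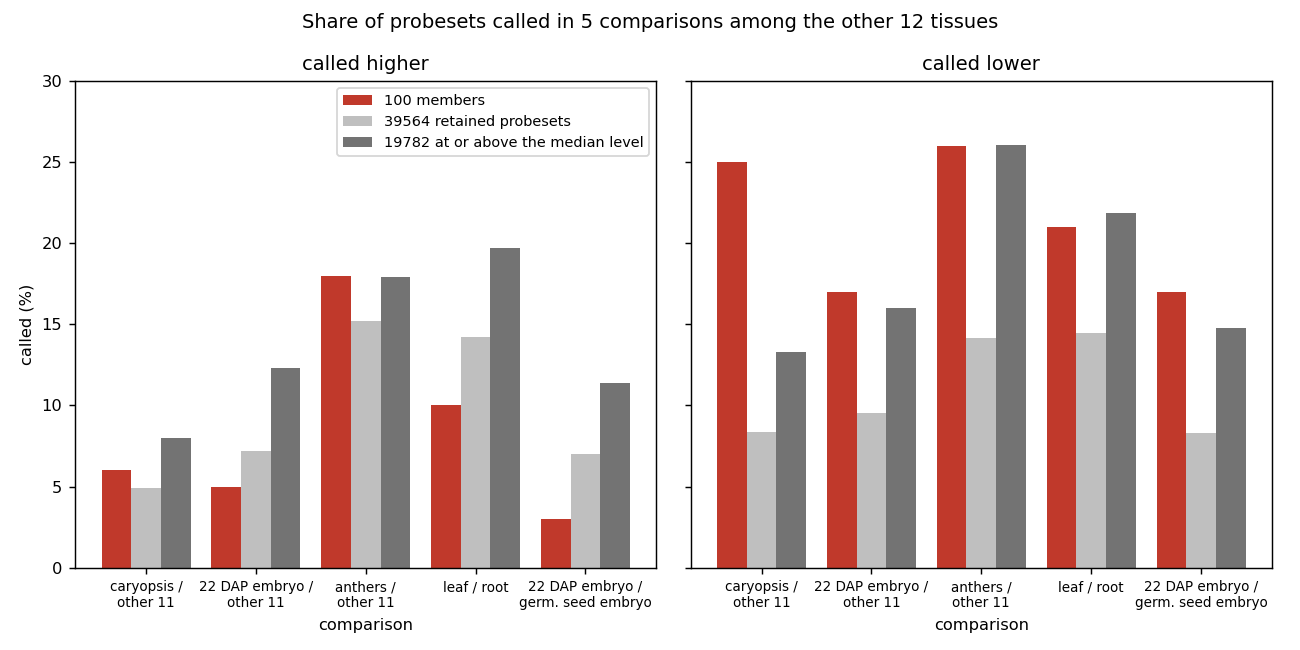
Percent of the 100 members (red), of the 39564 retained probesets (light grey) and of the 19782 at or above the median level (dark grey) called higher (left panel) or lower (right panel) in the 5 comparisons. With the deposited scaling the members exceed both backgrounds clearly only for lower calls in the caryopsis, 25 against 8.38% and 13.3%. With arrays scaled to equal medians this count was 14, against 6.0% of the retained probesets. The share at or above the median level was not computed for that scaling.

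Over the 5 comparisons 33 members were called in none and 22 in 3 or more. Of all retained probesets 46.9% were called in none and 14.3% in 3 or more, and of those at or above the median level 26.8% and 25.3%, so that the members lay between both backgrounds. Lower calls in the caryopsis were combined with lower calls in the 22 DAP embryo in 10 members (2.67% of all retained probesets). They were combined with lower calls in the anthers in 8 (2.64%) and with higher calls in the anthers in 11 (1.79%). For probesets of similar level these shares were larger, at 4.37%, 4.60% and 2.86% in the same order. The counts of the members contain their higher share of lower calls in the caryopsis.

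Only 4 members are paired with a gene locus number. Ta.48.1.S1_at (LOC542787) had endosperm arrays at 6.71, 6.58 and 6.85 and the other arrays between 8.12 and 10.56, with the coleoptile highest at 10.48 and the anthers closest at 8.31. Ta.26917.1.S1_at (LOC543018) had 8.15, 8.37 and 8.50 in the endosperm and 9.63 to 12.51 elsewhere. It was above background everywhere, and the 22 DAP embryo was highest at 12.47, followed by the caryopsis at 11.23. Ta.23825.1.S1_at (LOC543433) was at 5.19, 4.68 and 4.43 in the endosperm and between 5.81 and 10.14 on the other arrays, with the leaf at 10.02, bracts at 8.32 and the 22 DAP embryo at 8.09 above all other tissues. Ta.9744.1.S1_at (LOC780624) was at 8.01, 7.80 and 8.29 in the endosperm and 9.19 to 11.69 elsewhere, highest in the immature inflorescence at 11.66. In none of these 4 did the endosperm arrays overlap with any other array.

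The 110 retained probesets of named genes were left out by the rule, and none of them reached the gap of the last member. The endosperm was the lowest tissue for 7 of them. Chosen after their values were seen, the nearest were the probesets of APT1 (also APRT), adenine phosphoribosyltransferase, with a gap of 0.86 (11.97 ± 0.10 in endosperm and 12.82 ± 0.03 in the 22 DAP embryo, SD, n = 3), and of TPC1 with 0.84.

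Other probesets for the same transcript cluster, which share the first number of the identifier, are a further measurement for some members, although not one free of the choice. The 100 members came from 97 clusters, 3 of which held 2 members each (TaAffx.10194, TaAffx.49997 and Ta.23366). For 48 members in 46 clusters the array carried 93 further probesets. The endosperm had the lowest of the 13 tissue means for 42 of the 93, or 45.2%, while it did so for 8.69% of all 61115 probesets. It was below the mean of the other 12 tissues for 77 of the 93, and for 28862 of the 61115. Of the 93 probesets, 24 were for the same part of a cluster as a member and can share its probes, and in these the endosperm was lowest for 18 with a median gap of 0.80. For the 69 directed to another part of the cluster it was lowest for 24, or 34.8%, with a median gap of -0.21. When only the 35 of these that passed the filter on suffixes were counted, it was lowest for 7, or 20.0%. These 35 were candidates under the rule and are not members because their gaps, at most 1.26, fell below the limit, so the choice capped their gaps and lowered the shares and medians that include them. Parts of a cluster can be different homoeologs, paralogs or ends of a transcript, and which of these applies is not given in the files.

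The clusters with most further probesets (4 or 5) differed among themselves. The 5 for Ta.9172.2.S1_at all had the endosperm lowest, but with gaps of only 0.01 to 0.63, since the coleoptile or the inflorescence was almost as low. The 4 for the pair Ta.23366.1.S1_at and Ta.23366.2.S1_at had gaps of 1.72, 1.18, 1.76 and 2.58. In this cluster all 6 probesets were therefore lower in endosperm than in every other tissue by more than 1. Some of the 4 are of the members' own parts and can share their probes. The others hold .A1, and the study disregarded such probesets as mostly wrongly oriented. For Ta.9766.2.S1_at, which had as many, the 4 gaps were 1.16, 0.67, 0.74 and 1.26. For Ta.1865.1.S1_at the probeset of the same part had a gap of 1.82, and the 3 of other parts had -0.03, -0.08 and -0.29. For Ta.4830.1.S1_at 1 of 4, which also holds .A1, had a large gap (2.10) and the others -0.03 to -1.04. All 4 for Ta.23833.1.S1_at had gaps below 0, from -0.66 to -1.74, and their tissue means correlated with the member at only -0.12 to 0.07 over the 13 tissues. Of both further probesets for Ta.23069.1.S1_at, which had the largest gap of the members, one had a gap of 3.18 and a correlation of 0.99 with it over the 13 tissue means, and the other 0.64 and 0.93. These share tissues, arrays and in part probes, and the correlations are given as a description.

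**Figure D5:**
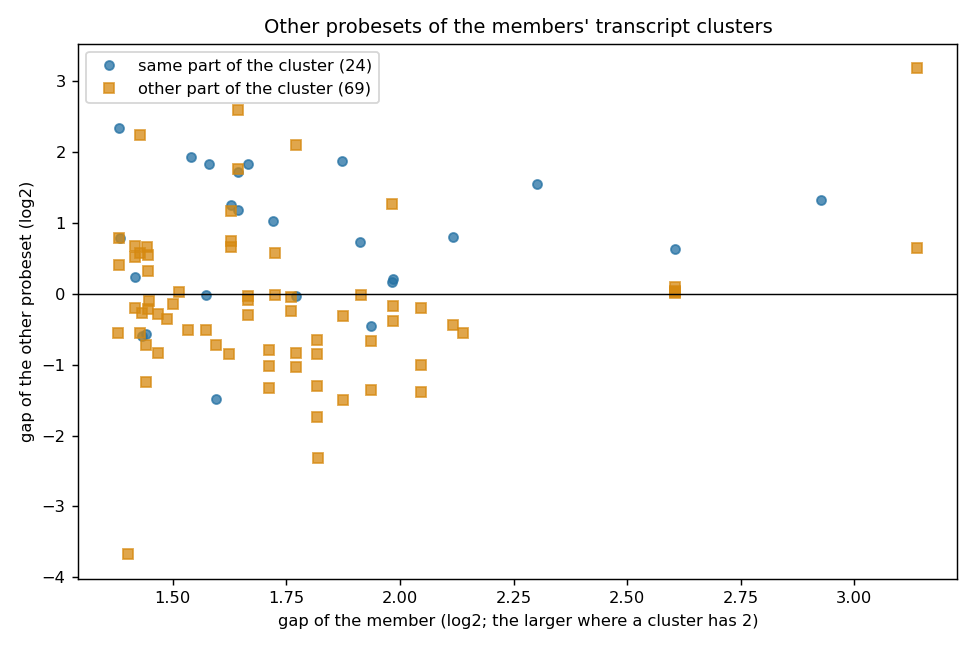
Gap (log2) of the 93 further probesets of the members' transcript clusters against the gap of the member, with probesets for the same part of the cluster as circles and those for another part as squares. Points above the horizontal line have 22 DAP endosperm as the lowest tissue, 18 of 24 circles and 24 of 69 squares.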

How the data were processed

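The deposited values were intensities on a linear scale, which the authors had made with MAS5 (version not given in the sources used here), 1 intensity per probeset and array, with a 2% trimmed mean of about 500.3 on each of the 39 arrays. The RMA procedure named in the study's methods would give other values, and these were not used here. Columns were assigned to samples by their labels. The members, the lists and the comparisons were chosen with earlier results of these data known.

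Values were used as log2(signal + 16). The mean of each tissue was fitted with limma 3.58.1 (R 4.3.3, lmFit and eBayes) over all 39564 retained probesets, and p-values were adjusted by the Benjamini-Hochberg method over all of them. A probeset was called at an adjusted p under 0.05 and a log2 difference of at least 1. For the endosperm the largest of 12 p-values was taken, and the F test covered the other 12 tissues. The precision is limited by the 3 arrays of each tissue. The fit was tested on simulated data. Other steps ran in Python 3.11.15, using numpy 2.4.6, pandas 2.3.3 and, for plots, matplotlib 3.10.9.

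Of 1273 probesets with a gene in the platform annotation, 1272 were matched to a RefSeq gene, and 200, 110 of them retained, had a symbol or synonym other than a locus number. Lists by gene function were empty for the members, which have no descriptions, and no sequences or coordinates were used. Named members were the 10 with the largest gap, those next to the limit, those with a locus number, the 3 highest and 3 lowest in level and in range, the 3 largest calls in each direction of a comparison, and the 5 with most other probesets in their cluster. Ta.10331.1.S1_at and others meet several of these criteria.

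Replicate numbers were not found to pair the arrays, since deviations from the tissue means correlated at -0.06 to 0.10 between arrays of different tissues with the same number, with a mean near 0. Alternatives were quantile normalization, scaling to equal medians or to the hybridization controls, offsets of 1 and 64, tissue medians, leaving out each replicate number or the bracts, pistil and seedling root, only probesets at or above the median level, no filter on identifiers, limma's trend and robust options, a replicate block, and other thresholds.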

Additional observations from a re-analysis of the deposited data

How the results depend on the processing

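With 3 arrays per tissue, and most members near background in the endosperm, the size of a gap and the membership near the limit are imprecise. The median gap of the members was 1.65 and became 2.26 with scaling to the hybridization controls, 2.09 with an offset of 1 and 1.22 with an offset of 64. It was 1.61 to 1.69 without a replicate number. The rule kept 60 members with scaling to the hybridization controls, 63 with an offset of 1, 62 without bracts, pistil and seedling root, and 66 to 76 without a replicate number, 66 being without replicate 3. The median of all retained probesets in endosperm, relative to the other tissues, moved from 0.11 to -0.01 with quantile normalization, -0.12 with equal medians and -0.61 with the hybridization controls.

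Shares of all retained probesets at the same setting are given in parentheses. Lower calls in the caryopsis fell from 25 to 14 with equal medians (6.0%). With the hybridization controls, higher calls became 3 in the 22 DAP embryo (5.89%) and 11 in anthers (7.03%), and lower calls became 51 in anthers (22.7%), 52 in leaf against root (27.8%) and 31 in the 22 DAP embryo against the germinating embryo (12.01%). Higher calls in the latter comparison were 6 with equal medians (7.74%) and 5 with an offset of 1 (6.79%). They were 3 to 5 without a replicate number (5.90% to 6.14%), 5 being without replicate 2. With a difference of 0.5 as the threshold, lower calls were 42 in the caryopsis (15.2%), 34 in the 22 DAP embryo (14.9%), 46 in anthers (20.2%), 35 in leaf against root (18.8%) and 27 in the 22 DAP embryo against the germinating embryo (10.8%). Higher calls at this threshold were 17 in the 22 DAP embryo (14.3%), 29 in anthers (24.6%), 19 in leaf against root (17.3%) and 11 in the embryo comparison (11.0%). The cause of these changes was not tested.

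With a replicate block 98 members were lower in endosperm than in each tissue (0.526% of all retained probesets), in place of 97 (0.523%). At every setting this count follows from the choice of the members. Of the members 97 varied among the other tissues (65.9%), in place of 96 (66.2%). The counts of the 5 comparisons were the same as without the block. Without a replicate number, 71 to 83 members were lower in endosperm (0.379% to 0.488% of all retained probesets) and 87 to 91 varied (57.7% to 58.1%). Of 484 values of named members under the alternatives, 464 kept their call or moved by less than 1 SD, 6 fell below the threshold, 14 gaps moved further and 0 changed direction.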
